A study of Mus musculus with 3 samples.

Results

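Among the BMAL1 peaks of mouse liver classed as BMAL1 only in the annotated peak table, that is, without a CLK peak, those of highest MACS score were assigned to Pcsk4, Gmfb and Rgs16. They were found as the rows of the annotated peak table with these gene symbols, in any class. Each gene had 1 row, so the sites are 3 of the 1368 BMAL1 only peaks and 3 of the 2127 rows of the table. Of these 1368 peaks, 1, a second peak of Phf17, shared bases with a CLK peak in the lists, and none of the 3 sites did. Within 100 kb of them lay 4 other BMAL1 peaks and 1 CLK peak. The sites were chosen by their BMAL1 score and by the lack of an overlapping CLK peak, so both are given below as descriptions, without a test.

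The ChIP-Seq libraries were made from a liver extract of adult C57BL/6 mice (3 to 6 months) housed under 12 h of light and 12 h of darkness, taken at ZT8, 8 h after lights on. Chromatin was immunoprecipitated with an anti-CLK or an anti-BMAL1 antibody, and an Input library without antibody served as the control for both. There was 1 library for each, so no value has a replicate, and the number of mice in the extract was not given in the sources used here. The libraries held 18846303 (Input), 28920754 (BMAL1) and 37371047 (CLK) uniquely mapped tags.

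BMAL1 and CLK (CLOCK) are bHLH-PAS transcription factors that bind DNA as a dimer and drive the daytime activation of clock genes in most tissues, liver included. BMAL1 can also pair with NPAS2, a close relative of CLK. The preferred site of these dimers is the e-box, the palindromic hexamer CACGTG, which reads the same on both strands.

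All 3 sites carried an e-box close to the BMAL1 summit, the position of highest tag density in the peak. Each hexamer is shown in capitals with 12 bases on either side, read from the plus strand of NCBIM37 (mm9), because it is the feature that these sites have in common. They are at chr10:79785818-79785847 (Pcsk4, near the summit), chr10:79786213-79786242 (Pcsk4, in the right part of the peak), chr14:47441907-47441936 (Gmfb) and chr1:155544848-155544877 (Rgs16).
Pcsk4, near the summit: aagctggacctgCACGTGctcgagcgagcg
Pcsk4, second e-box of the peak: cgggggctctctCACGTGggggtgtgcacc
Gmfb: cgccgtggcccgCACGTGacagcggacggc
Rgs16: ctcttcccacaaCACGTGgactccgcaggg

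The BMAL1 peak at Pcsk4 (chr10:79785540-79786822) held 117 tags and had a score of 347.31, where the score is the negative log10 of the p-value of MACS, multiplied by 10. Its fold enrichment over the local Input was 11.1. The peak at Gmfb (chr14:47441592-47442467) held 79 tags, with a score of 345.44 and a fold enrichment of 23.1. The peak at Rgs16 (chr1:155544441-155545256) held 89 tags, with a score of 291.39 and a fold enrichment of 16.1. The FDR given by MACS was 0% for each of them.

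The 3 sites reached a high score in different ways. Pcsk4 ranked first of the BMAL1 only peaks by score and by tags but 44th by fold enrichment. Gmfb ranked first by fold enrichment but 10th by tags, and Rgs16 was 5th by both. The Pcsk4 peak was also long. It spanned 1283 bp, the second longest of the BMAL1 only peaks, against 876 bp at Gmfb, 816 bp at Rgs16 and a median of 450 bp. Its tags per kb of peak, 91.2, were close to the 90.2 of Gmfb and below the 109 of Rgs16, against a median of 49.3. The best of the BMAL1 only peaks just outside the 3 had a score of 272.49 (BC145649).

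**Figure D1:**
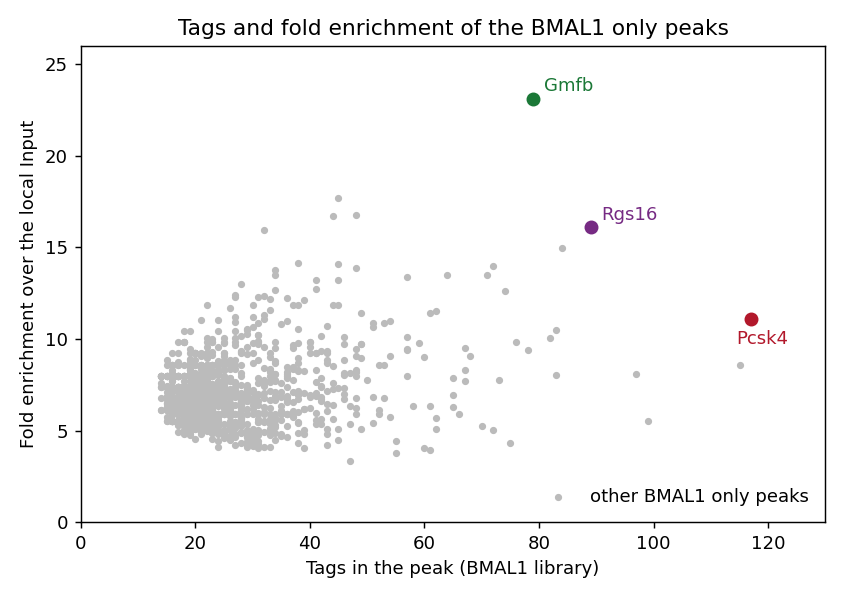
Tags in the peak (x axis) and fold enrichment over the local Input (y axis) of the 1368 BMAL1 only peaks, each point 1 peak. Pcsk4 has the most tags (117), Gmfb has the highest fold enrichment (23.1), and Rgs16 is high on both.

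The first question was how often BMAL1 peaks of about this score had a CLK peak. Among all 1578 BMAL1 peaks, 13.4% overlapped a CLK peak by 1 bp or more. Near the top of the list the reverse held. All 20 BMAL1 peaks with a score above that of Pcsk4 had a CLK peak, as did all 6 ranked between Gmfb and Rgs16. Both counts were fixed in advance, because the 3 sites were chosen as the BMAL1 only peaks of highest score. Taking up to 25 BMAL1 peaks next above and below each of the 3 sites gave 51 peaks. Of these, 47 had a CLK peak (92.2%, 95% Clopper-Pearson interval 81.1 to 97.8). Fewer than 25 peaks lay above Pcsk4 and Gmfb, so the 51 were all other peaks down to rank 54. They included the 20 and the 6 peaks just given, and their scores reached 2036.89 (Nr1d1). The share and its interval thus rest in part on peaks whose outcome was fixed by the choice of the sites. Ordered by fold enrichment, the share with a CLK peak was 68.5% of 111 peaks. Since the sites were chosen for lacking a CLK peak, the share describes their surroundings in the list and is no test of them.

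A site is listed for CLK only when its score passes the cutoff of 50. At the 47 shared peaks, which include the 20 ranked above the sites, the median CLK score was 121 (interquartile range 90.2 to 207). The lowest was 52.8, and 4 were under 60 and 16 under 100. The 20 peaks ranked above the sites had a median CLK score of 199.3. The 6 peaks ranked between Gmfb and Rgs16 had CLK scores of 66.0 to 166.6, with a median of 93.7. The 4 under 60 were all ranked just below Rgs16, at ranks 30, 31, 34 and 37, with CLK scores of 52.8 to 58.55. The shared peaks at ranks 32, 33 and 36 had CLK scores of 276.47, 120.66 and 112.48. Coq10b, with a BMAL1 score of 333.8, had a CLK score of 166.6 from 60 tags. 1810013L24Rik, with 118 BMAL1 tags and a BMAL1 score of 315.67, had a CLK score of 66.0 from 76 tags. Hdac11, with a BMAL1 score of 303.39, had a CLK score of 67.7 from 37 tags. The CLK tags at Pcsk4, Gmfb and Rgs16 were not analysed here. The lists give only that CLK did not pass the cutoff there. The CLK library had more mapped tags than that of BMAL1 but gave fewer peaks, 759 against 1578. The part of depth and of enrichment in the lack of a CLK peak was not tested.

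**Figure D2:**
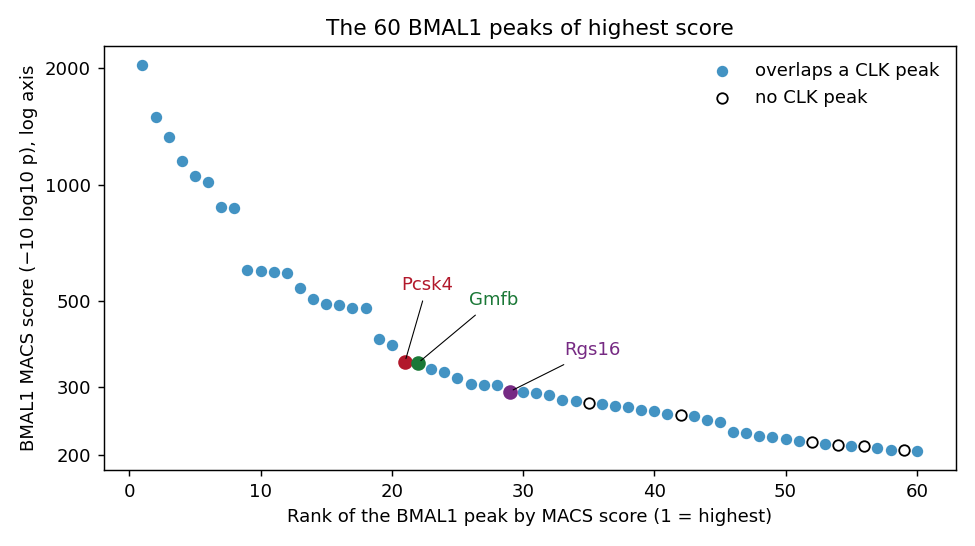
BMAL1 MACS score (y axis, log scale) against rank (x axis) for the 60 BMAL1 peaks of highest score. Filled blue points overlap a CLK peak and open points do not. Pcsk4, Gmfb and Rgs16 (coloured, no CLK peak) are at ranks 21, 22 and 29, among filled points on either side.

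The e-box lay 3.5 bp from the summit at Pcsk4, 6.5 bp at Gmfb and 49.5 bp at Rgs16, measured to its centre. Of all BMAL1 only peaks, 22.0% (Clopper-Pearson interval 19.8 to 24.3) had an e-box within 100 bp of the summit, with a median distance of 24.5 bp (interquartile range 11.5 to 44.5, n = 301). Pcsk4 and Gmfb were thus nearer than the lower quartile and Rgs16 farther than the upper one. The share with an e-box was higher among strong peaks. It was 64.0% in the next 50 BMAL1 only peaks by score (32 peaks, interval 49.2 to 77.1), whose scores were 127.49 to 272.49. Of the BMAL1 peaks with a CLK peak, 14 of the 20 ranked above the sites and 4 of the 6 between them had one. An e-box was thus common at strong BMAL1 peaks. From 400 to 500 bp on either side of the summit, 2.70% of BMAL1 only peaks had one, and none of the 3 sites did.

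**Figure D3:**
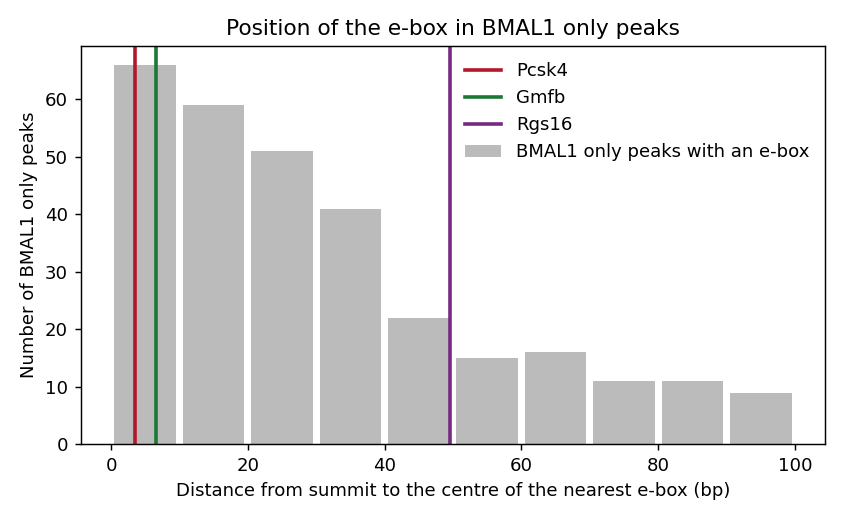
Distance from the BMAL1 summit to the centre of the nearest e-box (x axis, bp) for the 301 BMAL1 only peaks with an e-box within 100 bp, as the number of peaks per 10 bp (grey bars). Coloured lines mark Pcsk4 at 3.5, Gmfb at 6.5 and Rgs16 at 49.5 bp.

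A single e-box within 100 bp was found at each site. Hexamers with 1 mismatch to the e-box were added to see whether a second, degenerate site lay beside it, since CLK:BMAL1 has been described at e-boxes in tandem, 6 or 7 bp apart. The counts of such hexamers, the e-box included, were 5 at Pcsk4, 1 at Gmfb and 4 at Rgs16, against a median of 1 over the BMAL1 only peaks. At Rgs16 the hexamer nearest to the summit was cacggg, centred 1.5 bp from it, and the closest degenerate hexamer to the e-box was cgcgtg, 18 bp away. At Pcsk4 the closest one was cacgcg, 40 bp away. None of the 3 sites had the tandem spacing of 6 or 7 bp, which 1.83% of BMAL1 only peaks had.

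The sites were rich in G and C. In the 201 bp around the summit the GC content was 68.7% at Pcsk4, 65.2% at Gmfb and 60.7% at Rgs16, higher than in 92.0%, 88.0% and 83.6% of BMAL1 only peaks, whose median was 51.7%. The next 50 peaks by score had a median of 63.7%, close to the 3 sites. The ratio of observed to expected CpG was 0.937 at Pcsk4 and 0.984 at Gmfb, and 0.456 at Rgs16, against a median of 0.256. The first 2 sites were thus close to the CpG frequency that base composition alone would give, while Rgs16 was depleted of CpG. The part of base composition in the tag counts was not tested.

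Pcsk4 encodes a proprotein convertase known mainly from male germ cells, and it sits in a gene-dense stretch of chromosome 10. The summit lay in exon 12 of 15 of the Pcsk4 coding transcript, in coding sequence, 6.41 kb from the annotated start of the gene (GENCODE M1). In 2 further Pcsk4 transcripts, marked for nonsense-mediated decay, the same exon is annotated as UTR. The peak was asymmetric, with the summit 23.1% of the way along it. The second e-box lay 391.5 bp to the right of the summit, in an intron, and 395 bp from the first. Of 6 annotated Pcsk4 transcripts, 2 short ones of 3 exons, marked as retaining an intron, started within this exon, 35 and 36 bp from the summit. The other 4 started 6.31 to 6.41 kb away. Taking each gene at its outermost start, as in the distances that follow, the nearest was that of 2310011J03Rik, a gene named only by its clone, at 2.55 kb. The start of Reep6, a receptor accessory protein of the endoplasmic reticulum, lay 6.86 kb away on the other side.

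The Pcsk4 site had company. Of BMAL1 only peaks, 18.0% had another BMAL1 peak within 100 kb, and Pcsk4 had 3, all of them BMAL1 only. The nearest was an intronic peak of Reep6, 7.46 kb away (chr10:79794281-79794942), with 44 tags, a score of 94.66 and a fold enrichment of 7.58. It lay 1.96 kb inside the gene from its start and had no e-box. The second, 63.6 kb away (chr10:79850434-79850833), was 208 bp from the start of Mex3d, an RNA-binding protein gene. It held 25 tags, with a score of 65.28 and a fold enrichment of 7.45. It contained 2 e-boxes, the nearer one 23.5 bp from the summit, shown here from chr10:79850574-79850603 as the only e-box near a summit among the neighbouring peaks.
Mex3d: ctggcccgcccgCACGTGcgggaggcgcca
The third, 73.0 kb away on the other side (chr10:79711588-79712562), was 132 bp from the start of Ndufs7, a subunit of respiratory complex I. It held 49 tags at a score of 55.16 and a fold enrichment of 5.09, just above the cutoff, and its FDR was 7.27%. The scores thus fell from 347.31 at Pcsk4 to less than 100 at every neighbour.

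No CLK peak lay within 100 kb of Pcsk4. The nearest was 353 kb from its summit (chr10:80139076-80139756), a CLK:BMAL1 peak assigned to Mnk2, with a CLK score of 73.64 and 58 tags. The median BMAL1 only peak had its nearest CLK peak 954 kb away, measured between the edges of the peaks (interquartile range 357 to 2190). After 2310011J03Rik, Pcsk4 and Reep6, the next starts by distance from the summit were those of Adamtsl5, a secreted matrix protein gene, at 25.3 kb, Apc2, a relative of the tumor suppressor Apc, at 27.1 kb and Rps15, a ribosomal protein gene, at 30.7 kb. In all, 18 gene starts of GENCODE M1 lay within 100 kb of the summit, 14 of them protein-coding.

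Gmfb encodes glia maturation factor beta, an actin regulator of the ADF-homology family that acts on branched filaments. Its site was the only one of the 3 at the outermost annotated start of its assigned gene. Such a place was common among BMAL1 only peaks of high score. Of the next 50 by score, 54.0% lay within 1000 bp of a start, against 16.3% of all. The Gmfb summit was 2 bp inside the annotated start (GENCODE M1), in the 5′ UTR, and the e-box began 2 bp upstream of that start. The start in the authors' table is 32 bp farther into the gene, and their table gives a distance of 145 bp from the peak centre. The sequence from chr14:47441918-47442067, directly upstream of the annotated start and read on the plus strand, is shown for the position of the e-box. Gmfb is transcribed from the minus strand, so transcription runs away from this stretch to the left.
Gmfb upstream region: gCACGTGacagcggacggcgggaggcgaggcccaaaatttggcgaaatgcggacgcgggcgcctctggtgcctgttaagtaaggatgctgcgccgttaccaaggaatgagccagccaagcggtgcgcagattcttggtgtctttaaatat

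Gmfb had no other BMAL1 peak and no CLK peak within 100 kb. Most BMAL1 only peaks were alike in this. Only 18.0% had another BMAL1 peak within 100 kb, and 9.14% a CLK peak. The nearest BMAL1 peak, a BMAL1 only peak of Ktn1, was 890 kb away (chr14:48332094-48332583, score 56.45), against a median of 427 kb over the BMAL1 only peaks. The nearest CLK peak, CLK only and assigned to Fermt2, was 1290 kb from the summit (chr14:46150152-46150486, CLK score 54.34). Over the BMAL1 only peaks the median was 954 kb between edges (interquartile range 357 to 2190). The next starts beside that of Gmfb were those of Gm10101, a predicted gene, at 9.79 kb and Cgrrf1, a RING finger protein gene, at 9.89 kb. Beyond them were Cnih, an export receptor of the endoplasmic reticulum, at 33.8 kb, Samd4, a translational repressor, at 60.6 kb, and Cdkn3, a cell cycle phosphatase, at 61.7 kb. The peak overlapped the annotated Gmfb gene over 326 bp, 37.2% of its length, and no other gene.

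Rgs16 encodes a regulator of G protein signaling of the R4 group, which speeds GTP hydrolysis on Gα subunits. Its site was not at the gene. The summit lay 42.6 kb upstream of the annotated start of Rgs16 and 115 bp past the end of Rgs8, the neighboring gene on the same strand and another R4 member. The peak itself overlapped the 3′ end of Rgs8 over 357 bp, 43.8% of its length. The outermost start of Rgs8 was 44.8 kb away, but 9 of its 10 annotated transcripts started nearer than Rgs16, at 30.3 to 36.7 kb. The authors' table counts the peak as outside Rgs8. The 201 bp around the summit (chr1:155544812-155545012, plus strand), past the annotated end of Rgs8, are shown for the place of the e-box to the left of the summit, which is the base in the middle.
Rgs16 summit region: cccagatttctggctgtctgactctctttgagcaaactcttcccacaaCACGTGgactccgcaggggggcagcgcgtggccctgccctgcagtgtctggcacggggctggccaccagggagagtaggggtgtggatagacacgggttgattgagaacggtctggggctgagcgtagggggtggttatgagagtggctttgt

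Rgs16 was the only one of the 3 with a CLK peak within 100 kb, which 9.14% of BMAL1 only peaks had. That peak was shared with BMAL1 and lay in an intron of Rgs8, 18.2 kb from the summit. The BMAL1 peak there (chr1:155526267-155526813) held 32 tags, with a score of 114.4 and a fold enrichment of 10.98. The CLK peak (chr1:155526293-155526730) held 26 tags, with a score of 73.52 and a fold enrichment of 7.41. The summits of both were 2 bp apart, and neither peak contained an e-box. Along this stretch, therefore, the BMAL1 site of higher score and with an e-box had no CLK peak, while the one of lower score and without an e-box had one. No peak of either list lay at the start of Rgs16 or of Rgs8.

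**Figure D4:**
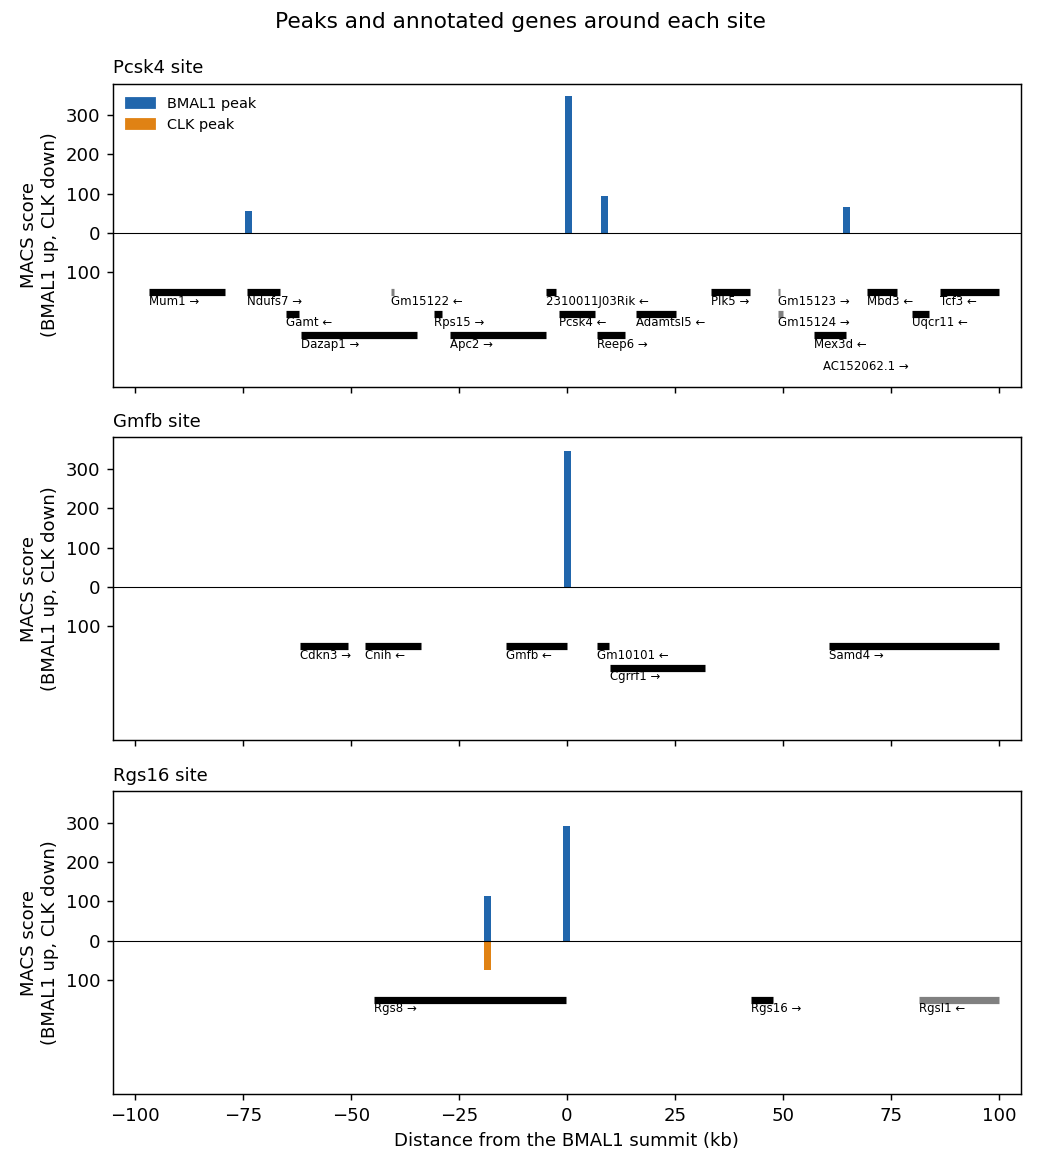
BMAL1 peaks (blue bars, upward) and CLK peaks (orange bars, downward) by MACS score (y axis) within 100 kb of each BMAL1 summit (x axis, kb), with genes of GENCODE M1 below (black protein-coding, grey other, arrows for strand). Bars are drawn wider than the peaks. The 18 gene starts around Pcsk4 contrast with 6 around Gmfb and 2 around Rgs16, and the only CLK peak is at Rgs8.

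Most e-boxes of these regions were not under a peak. In the 201283 bp of the Pcsk4 site with 100 kb on either side there were 42 e-boxes, of which 4 were in a BMAL1 peak. Around Gmfb 1 of 43 was, and around Rgs16 1 of 26. The e-box nearest to the start of Rgs16 was 1.37 kb from it and had no peak of either list. Tags mapping to more than 1 position were discarded by the authors, and how many of these e-boxes lie in such sequence was not tested.

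Neighboring genes that these sites could serve were therefore few at Gmfb and Rgs16 and many at Pcsk4. Of the 26 gene starts described within 100 kb of a summit, 22 were protein-coding. Within 1000 bp of a BMAL1 summit of any peak were 3 starts, those of Gmfb, Mex3d and Ndufs7. As background, 16.3% of all BMAL1 only peaks, and 54.0% of the next 50 by score, lay within 1000 bp of a start. None of the starts was so close to a CLK summit, but only 1 CLK peak lay within 100 kb of the sites. None of the 26 belonged to a list of 20 clock genes. RefSeq promoter sequences (GRCm38.p6, 250 bases before to 50 after the start) were matched for 18 of the 26 genes. An e-box was present in 2 of them, Gmfb and Dazap1, against 8.09% of 27025 genes with a promoter sequence. The 8 genes without a match included Pcsk4, Reep6, Gm10101 and Mex3d, and both e-boxes of the Mex3d peak lay upstream of its annotated start, 104 and 182 bp from it. Dazap1, an RNA-binding protein gene 61.6 kb from the Pcsk4 summit, had its start 12.2 kb from the nearest BMAL1 summit.

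The 5 BMAL1 only peaks next in score were the most alike to these sites in score and in lacking a CLK peak. They were assigned to BC145649 (score 272.49), AK154635 (252.71), Slc7a10 (215.83), Avpi1 (212.16) and Lima1 (210.74). Their fold enrichments ranged from 8.10 at Avpi1 to 17.7 at Lima1. None reached the 23.1 of Gmfb, but Lima1 was above the 16.1 of Rgs16. Lima1, AK154635 (14.95) and Slc7a10 (11.41) were above the 11.1 of Pcsk4. BC145649, AK154635 and Slc7a10 had an e-box within 100 bp of the summit, at 85.5, 12.5 and 74.5 bp, and Avpi1 and Lima1 did not. The nearest CLK peak was between 441 and 2880 kb away from the edge of these peaks, farther than at Rgs16.

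Relatives of the 3 genes were looked up in the same table, where 6.93% of 21900 protein-coding genes of RefSeq had a peak of any class. The 3 genes were chosen for their peaks and are left out of these counts, which are a description. Of the 9 other R4 RGS genes, 2 had a peak. Besides the peak of Rgs8, there was a BMAL1 only peak assigned to Rgs2, with 20 tags, a score of 62.5 and no e-box near its summit, 71529 bp from the start of the gene. Of 11 RGS genes of other groups, Rgs17 had a BMAL1 only peak (score 50.42) and Rgs6 a CLK only peak (CLK score 50.18), both just above the cutoff. These peaks lay 181523 bp (Rgs17) and 479318 bp (Rgs6) from the start of the gene. Of the 8 other proprotein convertase genes, 3 had a peak. Furin, which cleaves many precursors of the secretory pathway, had a CLK:BMAL1 peak 40982 bp from its start (chr7:87591046-87591552), with an e-box, a BMAL1 score of 130.9 and a CLK score of 51.78. Pcsk6 and Pcsk1 had CLK only peaks, with CLK scores of 76.89 and 53.05, at 52907 and 204321 bp from the start of the gene. Of the 9 other actin regulators with an ADF-homology domain, 0 had a peak. With so few genes in a list, nothing is read from these shares.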

How the data were processed

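Per the labels, reads were processed with CASAVA 1.6. The authors mapped them to mm9 with bowtie, kept uniquely mapped tags and called peaks with MACS for each antibody against the Input (p-value cutoff 1e-05, band width 80, model fold 5). The deposited values are counts of tags per peak, a score from the p-value, a fold enrichment, which is a ratio of ChIP to local Input, and an FDR in percent. Duplicate tags were 11.5% (CLK), 12.8% (BMAL1) and 3.39% (Input). Intervals cover counting error only.

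Here peaks were matched with pandas 2.3.3, intervals computed with scipy 1.17.1 and sequences read with pysam 0.24.0 from NCBIM37, whose chromosomes contain all 2337 peaks. An e-box was near when all 6 bases lay within 100 bp of the summit, and peaks were within 100 kb when their edges were. With 1 library per antibody, no test was made. The members, gene lists and alternatives were chosen with earlier results of these data known. Named were the 3 genes, the gene at each summit, the 6 nearest starts, genes assigned to peaks within 100 kb, the next 5 BMAL1 only peaks and listed family genes with a peak. Dazap1, Coq10b, 1810013L24Rik, Hdac11, Phf17, Ktn1, Fermt2 and Mnk2 were chosen after their values were seen. One gene near the sites is not reported here and is left out of the counts of gene starts. Alternatives covered ranking, windows, CLK scores, e-box distance and gene types. Overlap and e-box counting were tested on simulated data.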

Additional observations from a re-analysis of the deposited data

How the results depend on the processing

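Of 21 alternative values, 10 stayed near the reported one (ranks and distances equal, counts within 1.5 times, shares within the interval) and 11 moved. By tags, Gmfb ranked 10th and Rgs16 5th among BMAL1 only peaks. By fold enrichment, Pcsk4 ranked 44th, Gmfb 1st and Rgs16 5th, and the share of peaks of like rank with a CLK peak was 68.5%. With CLK scores of at least 100, the nearest CLK peak was 15500 kb (Pcsk4), 28400 kb (Gmfb) and 62200 kb (Rgs16) from the summit. Within 50 kb there were 2 other BMAL1 peaks and 16 gene starts. An e-box lay wholly within 50 bp of the summit at 2 sites. No paired analysis was possible because each antibody has 1 library. CLK tags at sites under the score cutoff are not listed, so a lower CLK signal at the 3 sites was not measured here.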
